A study of Mus musculus with 48 samples.

Results

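Collagen genes are described here in young mice, in the upper end of the small intestine (duodenum) and its lower end (ileum). The members are all genes whose symbol in the deposited tables has the form of a collagen chain (Col, a type number, the letter a and a chain number), which gave 44 of 54532 genes. They comprise 11 genes of fibrillar collagens, 9 of fibril-associated collagens with interrupted triple helices (FACIT), 6 of the type IV network of basement membranes, 6 of the type VI beaded filaments, 4 of transmembrane collagens, 3 of short-chain networks, 2 of multiplexins, 1 of anchoring fibrils and 2 of other types. The mice were wild-type C57BL/6J of both sexes, per the labels, which describe the housing as standard germ-free and place the pups with the dam until weaning. Pieces of 2 cm, labelled as full thickness, were taken on postnatal days 0, 2, 4, 6 and 8 and then at 2, 3 and 4 weeks; each region and age had 3 samples, 48 in all. Several ages came from each litter, and whether a duodenum and an ileum sample of the same age and number came from 1 animal is not stated, so p-values measure the spread between these samples. No group carried a treatment or an altered gene.

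Collagens are secreted proteins in which 3 chains wind into a triple helix, made possible by a glycine at the start of each Gly-X-Y triplet. Fibroblasts and smooth muscle cells make the fibrillar types I, III and V that give the gut wall its tensile strength, and type VI filaments link fibrils to cells. Type IV forms the sheet beneath the epithelium and around vessels and muscle, type VII anchors epithelium to stroma, and types XV and XVIII sit in basement membrane zones, the latter as the source of endostatin. Chains of 1 type assemble together, such as Col1a1 with Col1a2 and Col4a1 with Col4a2.

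The classes differ in how long their Gly-X-Y repeats run without a break, counted in coding sequences of GENCODE release M21 as runs of at least 3 triplets that begin with a glycine codon (GGN). The longest run had 216 to 344 triplets in the 11 fibrillar genes, with a median of 338. In the 6 type IV genes the longest run had 39 to 66 triplets, and the repeat was split into 23 to 27 runs. The 6 type VI genes had longest runs of 37 to 87 triplets, and Col8a1 had one of 60. The last triplets of the longest run and the codons after them are shown for a leading gene of types I, III, IV, VI and VIII, 5′ to 3′, with the glycine codons of the run in capitals, so that the end of the repeat can be seen.
Col1a1: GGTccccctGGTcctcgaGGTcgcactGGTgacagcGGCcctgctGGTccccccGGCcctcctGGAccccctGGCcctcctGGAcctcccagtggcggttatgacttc
Col3a1: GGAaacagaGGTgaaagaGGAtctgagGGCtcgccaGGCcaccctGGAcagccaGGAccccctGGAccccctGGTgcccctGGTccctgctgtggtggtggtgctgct
Col4a1: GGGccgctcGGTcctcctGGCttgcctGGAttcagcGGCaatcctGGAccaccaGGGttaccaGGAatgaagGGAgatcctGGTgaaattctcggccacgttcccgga
Col6a1: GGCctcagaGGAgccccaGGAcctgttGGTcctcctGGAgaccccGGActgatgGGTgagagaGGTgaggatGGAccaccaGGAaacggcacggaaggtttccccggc
Col8a1: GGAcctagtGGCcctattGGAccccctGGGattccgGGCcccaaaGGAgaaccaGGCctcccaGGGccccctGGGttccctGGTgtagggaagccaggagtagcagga
The Col1a1 and Col3a1 stretches are codons 1152 to 1187 and 1166 to 1201, at the end of a helix that fills most of the protein. The Col4a1 stretch is codons 133 to 168, where the run stops early in the protein and the sequence goes on into the next run. In GRCm38 Col1a1 lies on chromosome 11 from 94936224 to 94953042 on the plus strand, Col3a1 and Col4a1 on chromosomes 1 and 8.

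Total counts were 16824021 to 65042327 per library, and mitochondrial genes took 13.1% to 35.2% of them. The samples numbered 3 at day 6 were left out of both regions because they look exchanged. Of 1655 genes other than collagens that differed at least 4-fold between the regions in the remaining day 6 libraries, 97.8% were nearer the ileal mean in the sample labelled duodenum, and 95.2% nearer the duodenal mean in the one labelled ileum. Pdx1, a duodenal transcription factor, was at 0.130 CPM (counts scaled to a common library size, here its plain total) in the sample labelled duodenum and at 14.1 in the one labelled ileum, beside 11.8 and 11.4 in the remaining duodenum libraries. Among collagens, Col1a1 was at 118 CPM in the one labelled duodenum and at 7.81 in the one labelled ileum, and Col8a1 was at 6.31 and 0.509. All values below therefore come from 46 libraries, with 2 at day 6 in each region. Duodenum day 4 number 3 also stands apart: of the 46 libraries it has the highest ratio of Col1a1 to Col1a2 (4.66 per kb of exon, median 2.23), and the lowest of Col3a1 to Col1a1 (0.143, median 1.06) and of Col4a1 to Col4a2 (0.677, median 1.67). For the last of these ratios the lowest duodenum week 4 library was close, at 0.728. The counts over all ages and the day 4 counts are also given without duodenum day 4 number 3. Epithelial genes dominated the samples, with Epcam at 945 to 2715 CPM, while the smooth muscle genes Acta2 (1.10 to 38.1 CPM) and Myh11 (0.979 to 61.6 CPM) were low for pieces labelled as full thickness. In such tissue, fewer cells of a type and less RNA per cell cannot be told apart.

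Per kb of exon, averaged over the 46 libraries, Col4a1 had the highest level (11.4 CPM per kb), followed by Col4a2 (6.76), Col3a1 (5.76), Col1a1 (5.42) and Col6a1 (4.88). Exon length was taken over all annotated isoforms, such as 12426 bases for Col1a2 and 6563 for Col1a1. Levels, sums and shares per kb therefore depend on the annotation as well. The order differed between groups: by group mean Col4a1 came first in 10 of the 16, Col3a1 in 4 and Col1a1 and Col6a1 in 1 each. At week 4 Col3a1 led with 1.91 ± 1.43 CPM per kb in the duodenum, against 0.785 ± 0.420 for Col4a1, and with 7.07 ± 3.95 against 1.91 ± 1.19 in the ileum (SD, n = 3). At ileum day 8 Col1a1 (13.3 ± 4.52), Col3a1 (11.96 ± 4.997) and Col4a1 (11.3 ± 2.87) lay within each other's spread. Most of the remaining members were far lower: Col8a1 was at 0.375, Col17a1 at 0.0313 and Col2a1, the cartilage collagen, at 0.00602 CPM per kb. Of the 44 members 42 had counts high enough to be tested; Col9a1 and Col10a1, cartilage collagens too, reached at most 9 and 6 counts in any library. Summed over all 44 members, the duodenum held 109 ± 35.2 CPM per kb on day 0 (mean ± SD, n = 3), 82.3 ± 13.8 on day 2, 23.9 ± 14.4 on day 4, 13.3 ± 4.51 on day 8 and 12.6 ± 5.14 by week 4. For the ileum the sum was 135 ± 58.5 on day 0, 56.4 ± 16.2 on day 2, 84.1 ± 37.3 on day 4, 136 ± 55.2 on day 6 (n = 2), 86.3 ± 24.9 on day 8 and 30.8 ± 12.2 by week 4. The sums of the regions overlapped at day 0, while at day 8 the lowest ileum library (67.5) was far above every duodenum library.

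**Figure D1:**
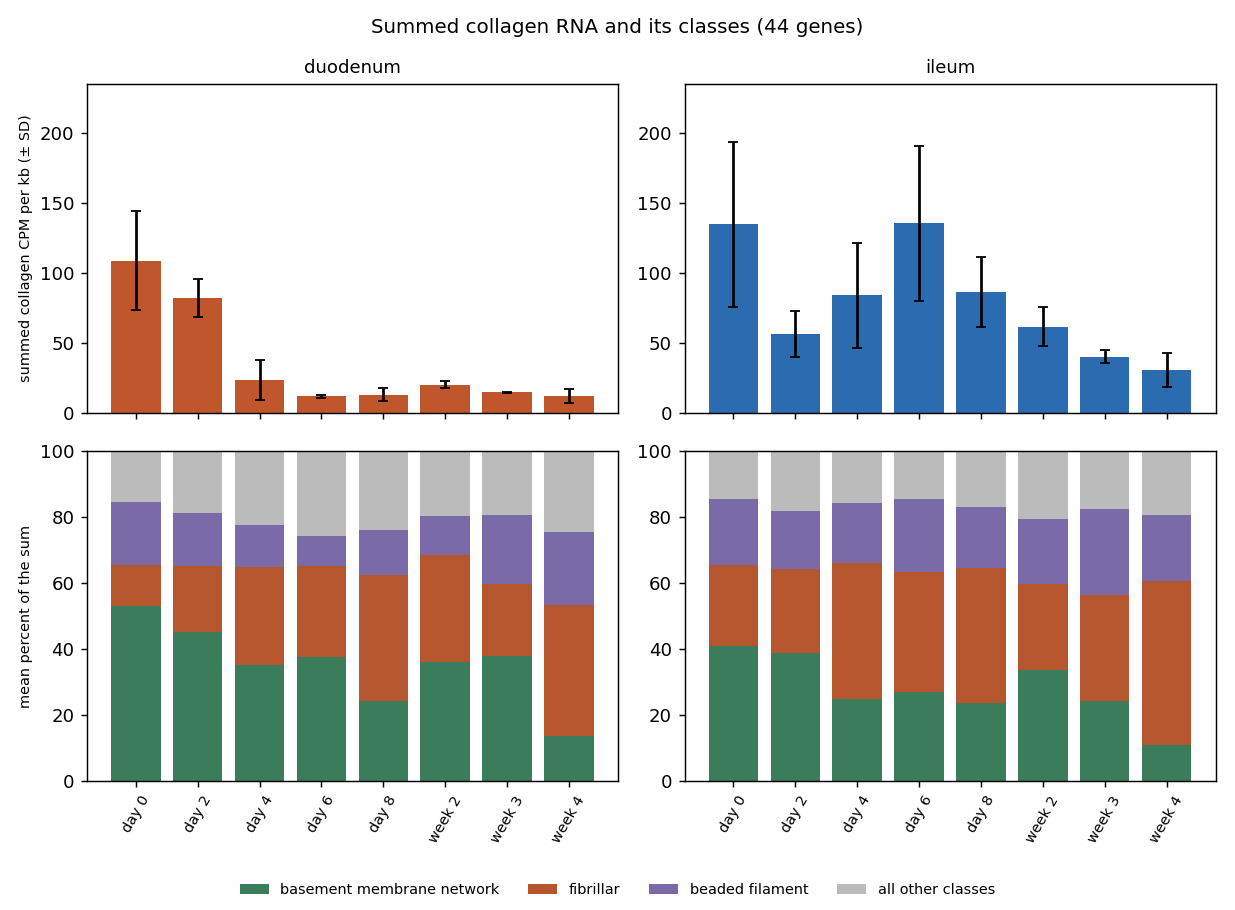
Upper panels: CPM per kb of exon summed over 44 collagen genes, mean ± SD of 3 libraries (2 at day 6), by age and region. Lower panels: mean percent of that sum in each class; the green type IV share in the duodenum goes from 52.9% at day 0 to 13.6% at week 4.

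The mix of classes differed between ages. Type IV chains made up 52.9% ± 4.41 of the duodenal sum at day 0 and 13.6% ± 0.795 at week 4 (SD, n = 3), and 40.8% ± 9.5 and 10.8% ± 2.26 of the ileal sum. The fibrillar share was larger at week 4, going from 12.5% ± 0.727 to 39.6% ± 8.84 in the duodenum, and in the ileum from 24.5% ± 5.54 to 49.8% ± 4.87, so at week 4 they held the largest of the shares plotted. The fibrillar level itself was lower at week 4: its sum was 13.6 ± 4.38 CPM per kb at day 0 and 5.28 ± 3.14 at week 4 in the duodenum, and 30.9 ± 7.18 and 15.7 ± 7.70 in the ileum, while the type IV sum was 58.6 ± 23.8 and 1.69 ± 0.591 in the duodenum. The type VI share was 19.1% ± 2.34 and 22.1% ± 2.52 in the duodenum at the same ages. These shares are a description, with no test.

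**Figure D2:**
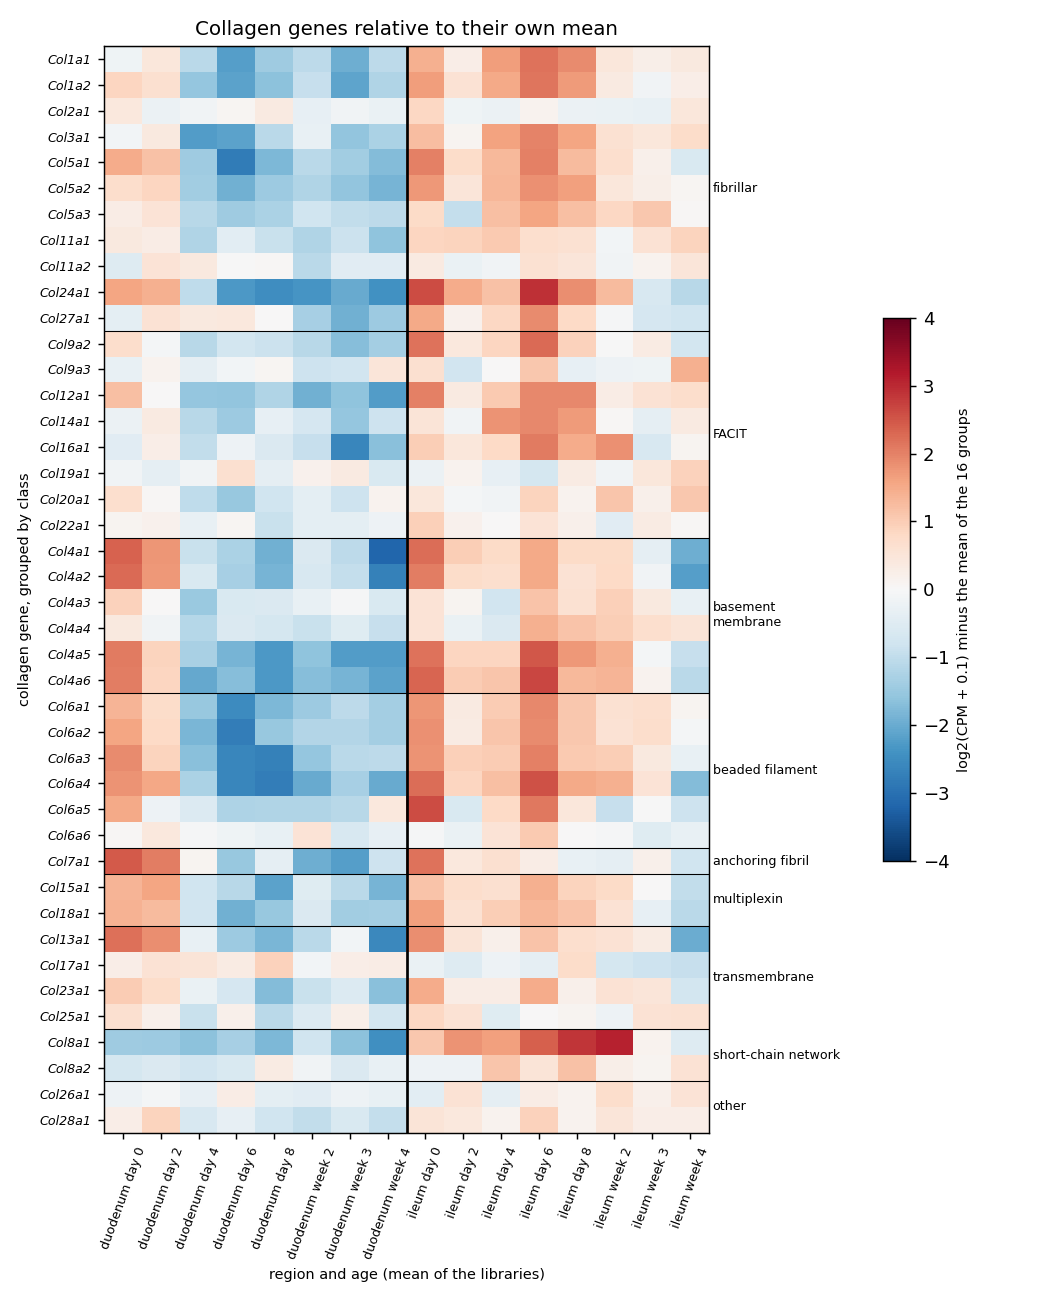
Mean log2(CPM + 0.1) of each tested collagen gene in 16 groups (columns) minus its mean over the groups; rows are grouped by class, red is higher. Most rows are red at duodenum day 0 and 2 and blue from day 4 on, and red in the ileum until day 8.

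Most collagen genes fell with age in the duodenum and 21 of 42 in the ileum, and no member passed the test as higher at week 4 than at day 0. In the duodenum 27 of 42 tested members were lower at week 4 (edgeR quasi-likelihood test, Benjamini-Hochberg adjusted over all 21986 tested genes), against 20.1% of all tested genes lower and 40.5% called in either direction. In the ileum 21 members were lower, against 20.4% of all genes lower and 41.9% in either direction. The median log2 fold change of the members was -2.14 in the duodenum and -1.46 in the ileum, beside -0.02 and 0.08 over all tested genes. Of the called members 20 were the same in both regions, 74.1% of the duodenal and 95.2% of the ileal list. Col6a5 passed the test in the ileum and not in the duodenum, and Col1a2, Col4a4, Col5a3, Col11a1, Col12a1, Col25a1 and Col28a1 the reverse; the difference of those fold changes was not tested by itself. Leaving out duodenum day 0 number 3 ends the duodenal calls of Col4a4, Col5a3, Col25a1, Col27a1 and Col28a1, and leaving out week 4 number 1, week 4 number 3 or day 0 number 1 that of Col8a1. Without week 4 number 1 the duodenal calls of Col4a4, Col5a3 and Col27a1 are lost too, and without week 4 number 3 those of Col5a3 and Col25a1. Over all 8 ages, 33 members changed in the duodenum (67.4% of all genes did) and 28 in the ileum (58.7%), in a broad test that most genes passed; without duodenum day 4 number 3 the first count is 32. With the day 6 libraries numbered 3 put back, the ileal count is 18, and the week 4 counts are 22 and 15.

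**Figure D3:**
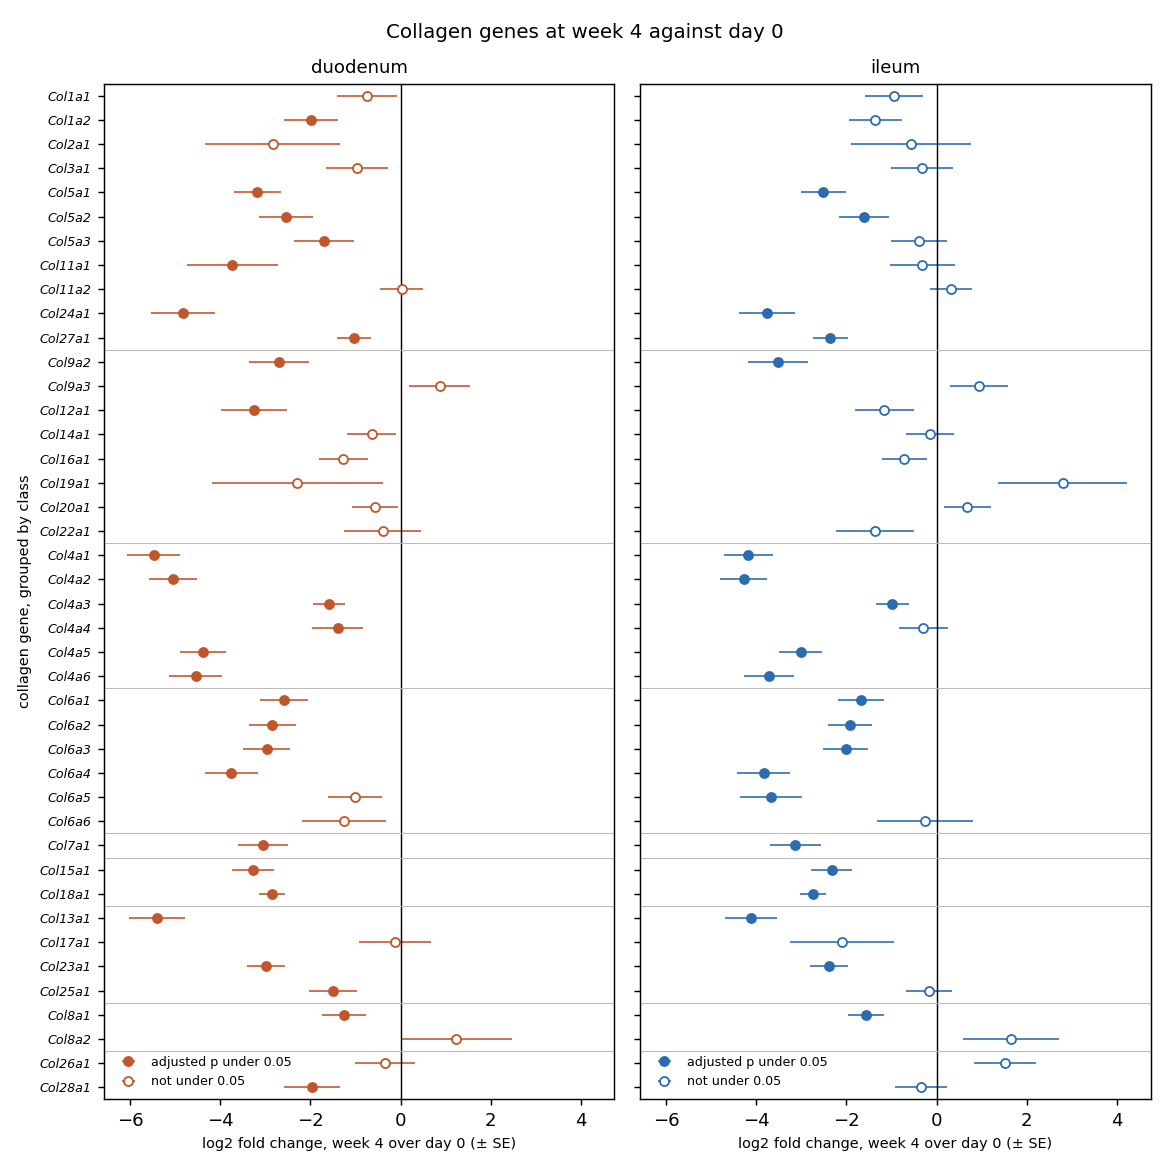
Log2 fold change of week 4 over day 0 (x axis, ± SE) for 42 collagen genes in each region, 3 libraries a group; filled points have an adjusted p under 0.05. All filled points lie left of 0, and Col4a1 and Col13a1 are the farthest left in the duodenum.

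The type IV chains of the common network fell steeply in both regions. Col4a1 in the duodenum stood at 174, 228 and 379 CPM at day 0, at 9.82, 14.3 and 14.2 at day 8 and at 2.87, 9.12 and 5.59 at week 4. No library of week 4 came near those of day 0, and the fall was 44.5-fold (log2 fold change -5.48 ± 0.58 SE, adjusted p = 2.36e-09). In the ileum Col4a1 stood at 106, 255 and 421 CPM at day 0, at 66.4, 78.1 and 108 at day 8 and at 6.06, 23.7 and 13 at week 4. The ileal day 0 and day 8 libraries overlap, and the fall by week 4 was 18-fold (-4.17 ± 0.55). Its partner Col4a2 fell by 5.05 ± 0.53 on the log2 scale in the duodenum and by 4.28 ± 0.52 in the ileum. Col4a5 and Col4a6, which form a network found around smooth muscle, fell by 4.38 ± 0.52 and 4.55 ± 0.58 in the duodenum and by 3.02 ± 0.48 and 3.73 ± 0.55 in the ileum. Col4a3 and Col4a4, the chains best known from kidney glomeruli and lung, had the smallest fold changes of the class: Col4a3 was at 3.08, 3.83 and 3.64 CPM at duodenum day 0 and at 1.51, 0.945 and 1.03 at week 4. That fall was 3.01-fold, and the ileal one 1.97-fold, with an adjusted p of 0.026 that is lost without ileum day 0 number 3, week 4 number 1 or week 4 number 2 (up to 0.145).

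Other basement membrane zone collagens fell as well. Col15a1 was at 20.02, 30.1 and 31.7 CPM at duodenum day 0 and at 2.66, 3.20 and 2.58 at week 4 (-3.27 ± 0.47), and at 10.8, 32.9 and 34.6 and then 5.42, 4.78 and 5.41 in the ileum (-2.33 ± 0.45). Col18a1, which had the smallest age effect p of the members in the duodenum (adjusted p = 4.87e-15), went from 21.3, 21.4 and 37.4 CPM to 3.29, 3.81 and 4.00 there. In the ileum it went from 24.4, 26.5 and 43.2 to 3.61, 5.96 and 4.34, a fall of 2.74 ± 0.29 on the log2 scale. Col7a1, the anchoring fibril chain, stood at 37.6, 30.8 and 26.5 CPM at duodenum day 0 and at 6.62, 3.25 and 1.45 at week 4. Its fall was 8.31-fold in the duodenum and 8.77-fold in the ileum, and the groups do not overlap in either region. The transmembrane collagen Col13a1 went from 4.63, 7.97 and 15.5 CPM to 0.104, 0.278 and 0.283 in the duodenum, a 42.4-fold fall, and fell 17.4-fold in the ileum.

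The main type VI chains fell too. Col6a1 was at 31.3, 34.8 and 47.0 CPM at duodenum day 0 and at 2.74, 9.89 and 6.22 at week 4 (-2.59 ± 0.53). In the ileum it was at 36.9, 46.9 and 67.4 and then at 14.4, 19.2 and 13.3 (-1.68 ± 0.51), so all ileal week 4 libraries lay below all of day 0 and above all duodenal ones. Col6a2 and Col6a3, which join Col6a1 in the common heterotrimer, fell by 2.85 ± 0.51 and 2.97 ± 0.52 in the duodenum and by 1.92 ± 0.50 and 2.02 ± 0.50 in the ileum. The chain Col6a4 fell from 39.8, 43.6 and 41.3 CPM to 1.69, 3.81 and 3.78 in the duodenum (-3.75 ± 0.58) and from 38.7, 54.3 and 89.3 to 3.44, 6.98 and 1.87 in the ileum (-3.84 ± 0.59). Col6a6 passed the test in neither region.

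Among the fibrillar genes Col3a1 and Col1a1, the highest by mean CPM over the 46 libraries, passed the test in neither region. Col1a1, the main chain of type I, was at 17.4, 18.3 and 25.1 CPM at duodenum day 0 and at 5.50, 19.2 and 11.6 at week 4, which overlap (-0.75 ± 0.66, adjusted p = 0.383). In the ileum it was at 52.1, 59.96 and 67.9 and at 20.6, 44.1 and 28.5; these do not overlap, but the test was not passed (-0.94 ± 0.65, adjusted p = 0.253). Col3a1, the chain of type III, gave -0.97 ± 0.69 and -0.32 ± 0.68, and its libraries overlapped in both regions. Col1a2, the second chain of type I, fell in the duodenum, from 26.4, 33.7 and 46.3 CPM to 4.82, 13.5 and 8.56 (-1.98 ± 0.60), while its ileal difference had an adjusted p of 0.0595 (-1.36 ± 0.58). Col5a1 and Col5a2, which form the type V core that sets fibril width, fell by 3.18 ± 0.52 and 2.54 ± 0.59 in the duodenum and by 2.51 ± 0.50 and 1.60 ± 0.56 in the ileum; leaving out ileum day 0 number 3, week 4 number 1 or week 4 number 3 ends the ileal Col5a2 call. Col24a1, a minor fibrillar collagen, went from 3.38, 3.19 and 2.08 CPM to 0.0261, 0.195 and 0.0707 in the duodenum (-4.83 ± 0.72) and from 3.03, 6.18 and 10.5 to 0.641, 0.652 and 0.0668 in the ileum (-3.77 ± 0.63). In all, 7 of 11 fibrillar genes fell in the duodenum and 4 in the ileum. Of 8 tested FACIT genes 2 fell in the duodenum (Col9a2 and Col12a1) and 1 in the ileum (Col9a2), shares near or below the 20.1% and 20.4% of all genes that fell. Of 6 type IV genes all fell in the duodenum, as did 5 in the ileum. The classes were not tested against each other.

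**Figure D4:**
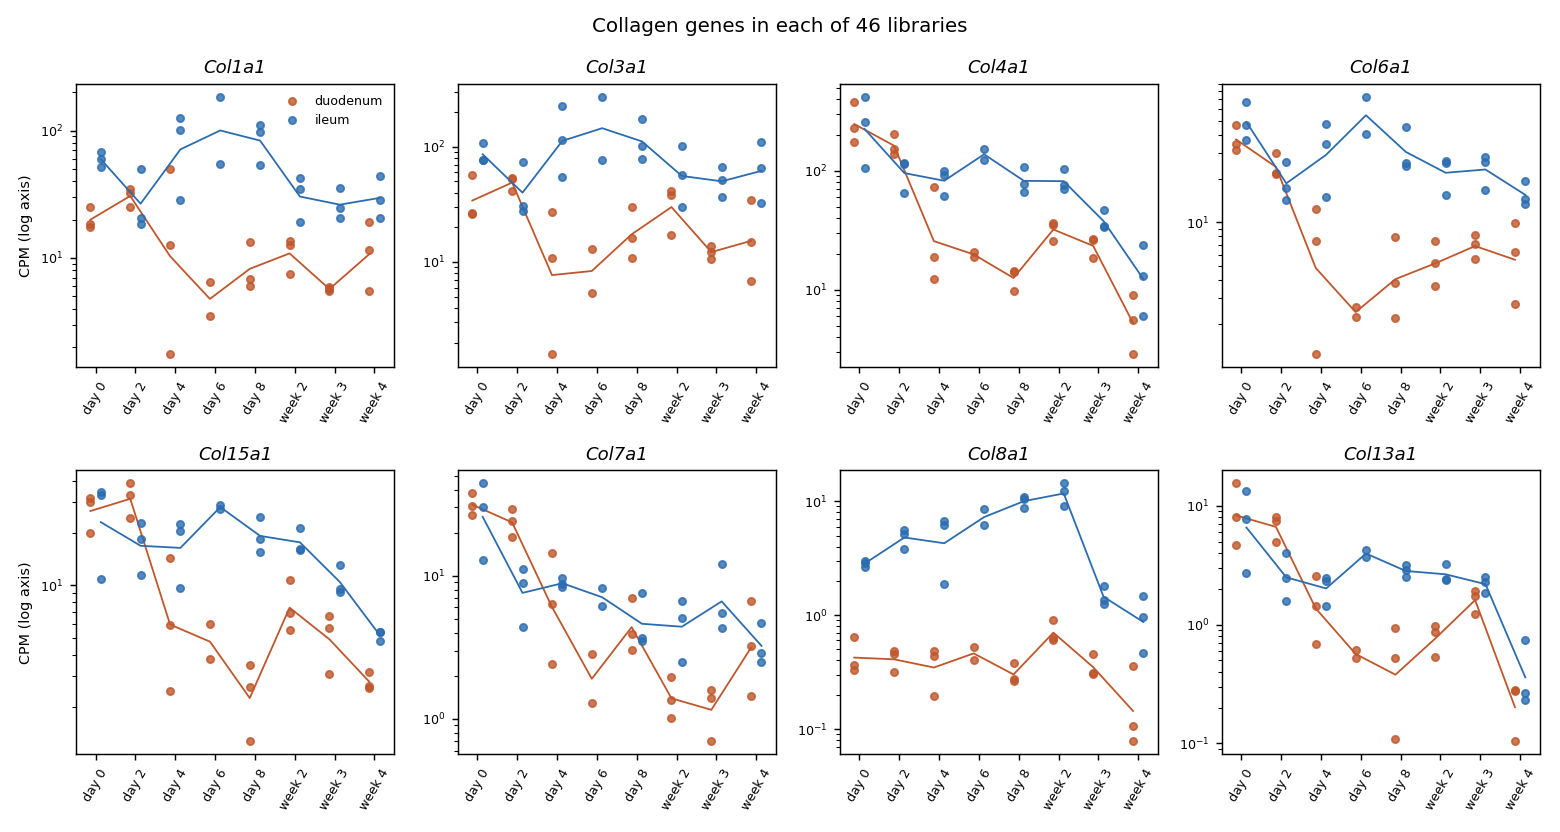
CPM on a log axis of 8 collagen genes in each of 46 libraries by age; points are libraries and lines join the geometric means of each age, with the duodenum in orange and the ileum in blue. Col4a1 ends low in both regions, the ileal lines of Col1a1 and Col3a1 lie above the duodenal ones from day 4 on, and Col8a1 is high in the ileum until week 2.

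Most of the duodenal falls were present by day 8. At that age, 26 of 42 members were already lower than at day 0 in the duodenum and none higher (19.2% of all tested genes were lower, 41.2% called in either direction), with a median log2 fold change of -1.86 beside -0.06 over all genes. All 6 type IV genes, 5 of 6 type VI genes and 5 of 11 fibrillar genes fell, led by Col24a1 (-5.09 ± 0.71) and Col4a6 (-5.02 ± 0.59). In the ileum 6 members were lower at day 8 than at day 0 (Col4a1, Col4a2, Col6a5, Col7a1, Col13a1 and Col23a1) and Col8a1 was higher, where 10.7% of all genes were lower, 8.56% higher and 19.3% called; leaving out 1 library gave 2 members (without ileum day 8 number 1) to 10 (without ileum day 0 number 1), and of the named genes Col7a1 and Col8a1 stayed called throughout. Col7a1 fell to a like extent by then in both regions, by 2.76 ± 0.55 and 2.55 ± 0.55 on the log2 scale.

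After day 8 few members moved at any 1 step. From day 8 to week 2 in the duodenum Col15a1 (1.66 ± 0.45), Col18a1 (0.92 ± 0.28) and Col8a1 (1.20 ± 0.43) rose and Col7a1 (-1.69 ± 0.57) and Col27a1 (-1.32 ± 0.38) fell, where 6.75% of all genes rose, 8.93% fell and 15.7% were called in all. Col15a1 was then at 5.52, 10.7 and 6.97 CPM, above the 1.27, 2.59 and 3.47 of day 8 in every library. At the same step in the ileum, where 6.64% of genes were called and 2.47% fell, Col14a1, a FACIT that decorates fibrils, fell from 9.57, 8.11 and 16.6 CPM to 3.99, 4.66 and 1.99. From week 2 to week 3, around weaning, Col16a1 (-1.75 ± 0.57) and Col18a1 (-0.78 ± 0.28) fell in the duodenum (10.6% of genes fell, 18.3% called). In the ileum Col8a1, Col16a1, Col24a1, Col4a5 and Col18a1 fell (13.9% of genes fell, 26.8% called), the FACIT gene Col16a1 from 15.5, 20.1 and 12.8 CPM to 1.60, 3.72 and 3.81 (-2.42 ± 0.53). From week 3 to week 4 Col4a1, Col4a2, Col13a1 and Col23a1 fell in the duodenum (4.96% of genes fell, 12.7% called), and Col4a2, Col6a4, Col13a1 and Col23a1 fell and Col9a3 rose in the ileum (7.81% of genes fell, 8.26% rose, 16.1% called). Col13a1 dropped at this last step by 2.89 ± 0.60 and 2.27 ± 0.58 on the log2 scale. Counted in either direction these step counts lie at or below the background share, and they move with single libraries: the duodenal count from day 8 to week 2 is 1 when day 8 number 1, week 2 number 2 or week 2 number 3 is left out, and 0 remain by edgeR from week 2 to week 3 without week 2 number 1 or week 3 number 2 (3 and 4 at an unadjusted p under 0.05; DESeq2 on all 46 libraries called 2). In the duodenum at the first of these steps, the Col8a1 call ends without any 1 of the 6 compared libraries (adjusted p up to 0.162), the Col7a1 call without any but day 8 number 2 (up to 0.198) and the Col18a1 call without number 1 or 3 of either age (up to 0.142). Col15a1 is lost without day 8 number 1 or week 2 number 2, and Col27a1 without week 2 number 2 or 3. From week 2 to week 3, Col16a1 is lost in the duodenum without number 1 or 2 of either age and Col18a1 without any library but week 3 number 1; in the ileum Col18a1 is lost without week 2 number 1 or 2 or week 3 number 3, and Col24a1 without week 3 number 1. At the last step Col23a1 is lost without any ileal library but week 3 number 3, and in the duodenum without week 3 number 1 or 3 or week 4 number 1 or 2. The ileal Col14a1 call ends without any 1 of the week 2 libraries, day 8 number 1 or day 8 number 3. The Col9a3 call ends without any 1 of the ileal week 3 libraries, week 4 number 1 or week 4 number 2.

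Markers of other cell types also differed between these ages, where 20.1% of all genes fell and 40.5% were called in the duodenum, and 20.4% and 41.9% in the ileum. Between day 0 and week 4 all 7 endothelial markers fell in the duodenum and 6 of 7 in the ileum (median log2 fold change -3.45 and -3.15), and their summed level went from 111 to 208 CPM at day 0 to 12.3 to 13.2 at week 4 in the duodenum, and in the ileum from 53.1 to 226 CPM down to 15.7 to 45.6. All 5 pericyte markers fell in the duodenum and 3 in the ileum. Of 10 fibroblast markers 5 fell and none rose in the duodenum, and 2 fell and 2 rose in the ileum, the latter a called share near that of all genes, with summed levels of 55.3 to 111 CPM at day 0 and 16.1 to 30.5 at week 4 in the duodenum and 59.3 to 104 and 55.1 to 86.0 in the ileum. Of 9 smooth muscle markers 2 rose and 1 fell in the duodenum and none passed the test in the ileum, shares below the background. By day 8 in the duodenum all endothelial and pericyte markers, 6 of 10 fibroblast and 3 of 9 smooth muscle markers were already lower. There 19.2% of all genes were lower by day 8 and 41.2% called. In the ileum 4 endothelial markers and none of the other lists were lower by then, where 10.7% of all genes were lower and 19.3% called. Epithelial markers rose in 7 of 8 cases by week 4 in both regions, from summed levels of 3840 to 4129 CPM to 8783 to 12237 in the duodenum. Every endothelial, smooth muscle and epithelial marker had counts in every library, while the fibroblast factor Twist2 was at 0 in at least 1 library of 9 groups. The part of cell makeup in the collagen falls was not tested.

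Collagen RNA was higher in the ileum than in the duodenum. Averaged over ages 36 of 42 members were higher in the ileum and 1, Col17a1, was lower (31.9% of all tested genes were higher and 30.2% lower, 62.1% in all), and the median log2 difference was 1.26 beside 0.08 over all genes. Without duodenum day 4 number 3 the count called is 38. The largest difference was that of Col8a1, a short-chain collagen of vessel walls and subendothelial matrix, at 3.42 ± 0.15. It stood at 2.67 to 2.99 CPM in the ileum at day 0 against 0.328 to 0.638 in the duodenum, and at 9.13, 12.2 and 14.4 against 0.602, 0.906 and 0.635 at week 2. At each of the 8 ages every ileal library of Col8a1 was above every duodenal one. The ileal level then dropped at week 3 to 1.80, 1.25 and 1.35 CPM (-3.01 ± 0.39, adjusted p = 8.23e-08), the largest fall of any member between week 2 and week 3. Next came Col24a1 (3.01 ± 0.24), Col4a6 (2.46 ± 0.20), Col4a5 (2.21 ± 0.17) and Col12a1 (2.20 ± 0.25), a FACIT of dense connective tissue. Col1a1 and Col3a1 were higher by 2.06 ± 0.25 and 2.03 ± 0.26. Col17a1, a hemidesmosome collagen of epithelia, was the exception at -1.46 ± 0.33, with lower mean log2(CPM + 0.1) in the ileum at all 8 ages; its levels were at most 0.685 CPM in any library, and 3 ileal libraries had none.

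**Figure D5:**
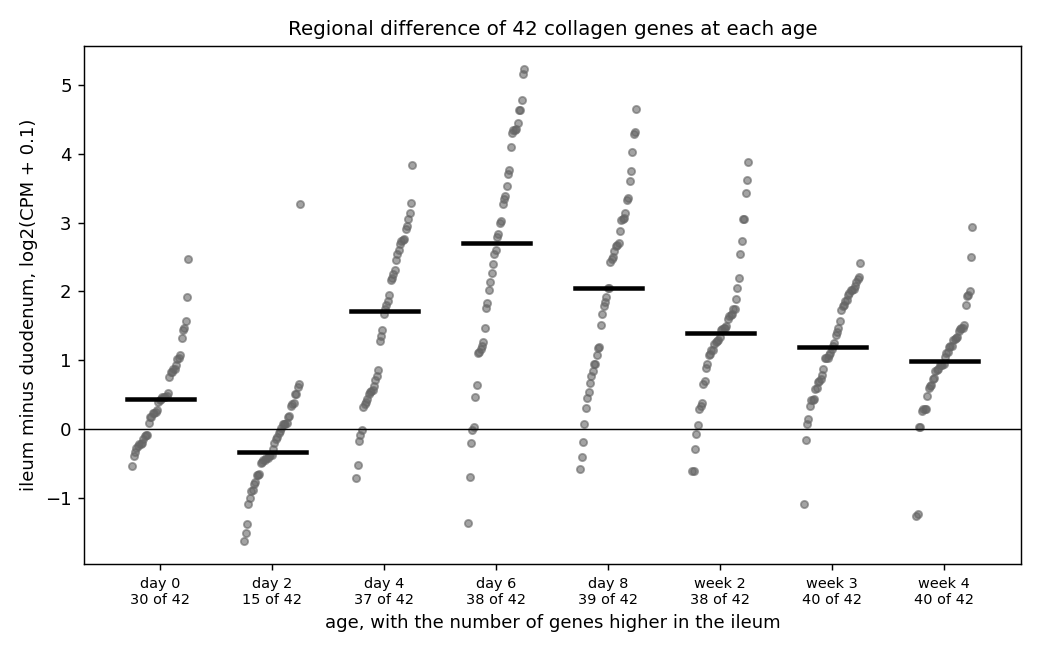
Ileum minus duodenum in mean log2(CPM + 0.1) for 42 collagen genes (points, sorted within an age) at each age; bars are medians. The cloud straddles 0 at day 0 and day 2 and lies mostly above it from day 4 on, with its highest median, 2.70, at day 6.

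The regional difference depended on age. At day 0 only Col8a1 (2.67 ± 0.41) and Col27a1 (1.99 ± 0.37), a fibrillar collagen of cartilage, passed the test, where 6.10% of all genes did (2.97% higher). The mean log2(CPM + 0.1) was higher in the ileum for 30 of 42 members at day 0, for 15 at day 2, and for 37, 38, 39, 38, 40 and 40 from day 4 to week 4; without duodenum day 4 number 3 the day 4 count is 38 and its median difference 1.83. The median difference was 0.43 on day 0 and -0.33 on day 2, reached 1.71, 2.70 and 2.05 on days 4, 6 and 8, and was 1.00 by week 4. At week 4, 13 members were higher in the ileum and none lower (14.5% of all genes were higher, 28.4% called in either direction), 6 of them fibrillar. Among these Col12a1 stood at 2.33, 8.56 and 6.81 CPM against 0.678, 1.42 and 0.177 (2.94 ± 0.73), and Col3a1 at 32.5, 109.8 and 65.9 against 6.88, 34.2 and 15 (1.89 ± 0.71), which overlap; the Col3a1 call ends without number 1 or 3 of the duodenum or number 2 or 3 of the ileum at week 4. Of the other fibrillar calls, those of Col5a2, Col5a3, Col11a2 and Col24a1 also end when a single week 4 library is left out. Their adjusted p by edgeR then reaches 0.111, 0.759, 0.582 and 0.145. The calls of Col4a5, Col16a1, Col19a1, Col25a1 and Col28a1 are lost in the same way. Leaving out 1 library gave 5 members without ileum week 4 number 2 and 16 without duodenum week 4 number 2.

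The course with age differed between the regions for 25 of 42 members (interaction of region and age, edgeR, adjusted p under 0.05), where 22.4% of all tested genes did. Without duodenum day 4 number 3 the count was 28, and with the day 6 libraries numbered 3 put back it was 0 by edgeR (16 members had an unadjusted p under 0.05); DESeq2 on the 46 libraries called 27. The smallest p was that of Col18a1 (adjusted p = 9.49e-08), followed by Col4a5 and Col6a4. For 24 of the 25 the log2 fold change from day 0 to day 8 was lower in the duodenum than in the ileum. The exception was Col27a1, whose duodenal value was 0.38 and ileal value -0.80. This direction was not particular to the called members, as 37 of all 42 tested members had it. Col18a1 had -2.98 and -0.54, Col4a5 had -4.51 and -0.51, and Col6a4 had -4.58 and -0.77. Col6a4 shows this in the libraries: its day 8 libraries stood at 1.49, 1.33 and 2.40 CPM in the duodenum and at 26.1, 37.2 and 43.6 in the ileum, while at day 0 the regions overlapped. By week 4 the fold change was lower in the duodenum for 19 of the 25 and for 33 of all 42.

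The same markers of stroma were higher in the ileum: averaged over ages 10 of 10 fibroblast, 8 of 9 smooth muscle, 5 of 7 endothelial and 5 of 5 pericyte markers. In contrast, 8 of 10 pancreatic acinar markers were lower. Over all tested genes 31.9% were higher and 30.2% lower, 62.1% in all. Of the acinar genes Pnlip was at 0 in at least 1 library of 15 groups, while Cela1 had counts in every library. At day 8 the fibroblast markers summed to 12.1 to 26.4 CPM in the duodenum and 61.9 to 108 in the ileum, and the smooth muscle markers to 20.7 to 25.7 and 45.9 to 104. At day 0, where 6.10% of all genes were called and 2.97% higher, no fibroblast marker differed and 4 smooth muscle markers were higher in the ileum. Their part in the regional differences of collagens was not tested.

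Ratios between chains that assemble together were taken on the CPM per kb scale. Col4a1 to Col4a2 was 1.64 ± 0.273 over the 46 libraries (SD), and Col6a1 to Col6a2 was 2.67 ± 0.448. Col1a1 to Col1a2 was 2.29 ± 0.607, and lower at duodenum day 0 (1.10 ± 0.124, n = 3) than at duodenum week 4 (2.47 ± 0.276), with no overlap. Col5a1 to Col5a2 went from 3.04 ± 0.341 to 2.05 ± 0.206 in the duodenum, and in the ileum from 2.17 ± 0.551 to 1.09 ± 0.222 between those ages. The ratios are descriptions, and exon length was taken over all annotated isoforms.

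Col4a1 and Col4a2 lie head to head and moved together, so their promoter windows are shown, from 250 bases before to 50 after the RefSeq start on GRCm38.p6, 5′ to 3′ on the gene's strand. Those of Col1a2 and Col3a1 are given for comparison. Capitals mark matches on either strand to 3 motifs that do not overlap in the windows shown. One is the GC box, GGGCGG. Another is the CCAAT box, named by its letters. The last is the TATA box, TATAAA.
Col4a1: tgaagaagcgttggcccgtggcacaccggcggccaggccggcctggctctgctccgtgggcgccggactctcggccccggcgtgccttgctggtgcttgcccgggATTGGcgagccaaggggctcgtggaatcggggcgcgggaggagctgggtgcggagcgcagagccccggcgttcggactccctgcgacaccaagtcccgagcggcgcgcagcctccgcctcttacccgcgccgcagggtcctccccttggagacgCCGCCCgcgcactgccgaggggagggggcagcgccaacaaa
Col4a2: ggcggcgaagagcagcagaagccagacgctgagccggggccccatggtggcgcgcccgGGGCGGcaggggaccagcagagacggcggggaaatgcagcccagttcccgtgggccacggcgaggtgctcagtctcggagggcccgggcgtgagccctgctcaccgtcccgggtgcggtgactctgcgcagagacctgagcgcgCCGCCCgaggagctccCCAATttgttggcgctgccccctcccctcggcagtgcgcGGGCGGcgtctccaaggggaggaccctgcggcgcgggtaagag
Col1a2: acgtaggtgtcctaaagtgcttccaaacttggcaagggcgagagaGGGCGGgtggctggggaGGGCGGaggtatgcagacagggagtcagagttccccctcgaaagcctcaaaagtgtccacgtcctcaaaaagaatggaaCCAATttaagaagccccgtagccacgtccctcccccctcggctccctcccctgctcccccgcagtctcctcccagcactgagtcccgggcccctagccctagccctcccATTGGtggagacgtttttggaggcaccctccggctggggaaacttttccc
Col3a1: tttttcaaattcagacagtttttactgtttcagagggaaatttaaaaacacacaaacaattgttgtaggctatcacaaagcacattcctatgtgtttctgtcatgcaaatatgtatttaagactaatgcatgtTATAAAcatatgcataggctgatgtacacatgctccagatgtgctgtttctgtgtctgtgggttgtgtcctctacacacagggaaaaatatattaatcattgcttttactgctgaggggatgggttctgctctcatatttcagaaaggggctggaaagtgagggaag
The Col4a1 window is chr8:11312777-11313076 on the minus strand and that of Col4a2 chr8:11312555-11312854 on the plus strand. They share 78 bases, and the start sites, 11312826 for Col4a1 and 11312805 for Col4a2, are 21 bases apart. Given the strands, the genes overlap between these starts, with no gap. The other windows are chr6:4505368-4505667 and chr1:45311288-45311587, both on the plus strand. Col4a1 held 1 GC box and 1 CCAAT box and Col4a2 held 3 and 1, Col1a2 held 2 and 2, and Col3a1 held only a TATA box in a window of 37.7% GC. The GC box of Col4a1 lies in the shared bases and is also 1 of the 3 counted for Col4a2. Of all 32851 windows listed, 35.7% held the GC box, 37.4% the CCAAT box and 13.6% the TATA box. For 35 of the 44 members a window was listed, and a match in it is a description of letters.

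Most genes that fold and modify collagen chains fell as well. The counts here and in the next paragraph stand beside 20.1% of all genes that fell and 40.5% called in the duodenum, and 20.4% and 41.9% in the ileum. Of 19 tested folding and modification genes 15 fell and 1 rose between day 0 and week 4 in each region, with a median log2 fold change of -1.89 in the duodenum and -1.28 in the ileum. Serpinh1, the collagen chaperone HSP47, went from 11.5 to 22.4 CPM to 1.43 to 3.92 in the duodenum (-2.59 ± 0.45), and Plod2, which hydroxylates lysines for cross-links, fell by 3.92 ± 0.33. The summed level of the folding list was 3892 ± 222 CPM at day 0 and 3721 ± 586 at week 4 in the duodenum, most of it P4hb, a prolyl hydroxylase subunit and disulfide isomerase (0.03 ± 0.23 on the log2 scale), and 3382 ± 278 and 1850 ± 644 in the ileum. Of 7 cross-linking genes 4 fell and none rose in the duodenum, and 4 fell and 1 rose in the ileum: Loxl2, a lysyl oxidase, fell by 2.45 ± 0.26 and Pxdn, which cross-links type IV, by 3.37 ± 0.51 in the duodenum. Of 9 propeptide processing genes 5 fell and 1 rose in the duodenum and 3 fell and 2 rose in the ileum. The sum of that list was higher at week 4, at 781 ± 116 and then 1497 ± 581 CPM in the duodenum and 1079 ± 356 and 2406 ± 682 in the ileum; most of it was the meprin subunits Mep1a and Mep1b, brush border proteases, of which Mep1b rose by 2.02 ± 0.22 and 2.54 ± 0.22 on the log2 scale. Of 16 basement membrane partners 11 fell and 2 rose in the duodenum and 10 fell and 2 rose in the ileum; Nid1, which bridges laminin and type IV, fell by 4.89 ± 0.45 and 3.71 ± 0.42, while Lamb3, a chain of the epithelial laminin 332, rose by 3.36 ± 0.36 and 3.89 ± 0.37. Of 16 elastic fibre and other matrix genes 9 fell in each region, with 1 rising in the duodenum and none in the ileum.

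Lists around collagen breakdown and sensing had shares called in either direction near or below those of all genes, except the TGF-beta list and the ileal proteoglycans. Of 16 protease, inhibitor and uptake genes 6 fell and 1 rose in the duodenum, a falling share above the 20.1% of all genes. In the ileum 3 fell and 3 rose. Timp3, a matrix-bound inhibitor, fell by 4.88 ± 0.44 in the duodenum and 4.41 ± 0.43 in the ileum. Mmp7, made by Paneth cells, rose by 3.53 ± 0.34 and 3.95 ± 0.34. Of 8 small leucine-rich proteoglycans 1 fell and 1 rose in the duodenum and 1 fell and 3 rose in the ileum, Bgn falling and Prelp rising in both (6.43 ± 0.52 and 4.83 ± 0.50). Of 9 collagen receptors 1 fell (Ddr2) and 1 rose (Ddr1) in the duodenum and 1 rose (Itga2) in the ileum. Of 17 TGF-beta signalling genes, a pathway known to induce fibrillar collagen, 7 fell and 4 rose in each region, with Tgfbr3 falling by 2.61 ± 0.30 and 1.95 ± 0.28.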

How the data were processed

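RNA of 48 samples was sequenced, and the authors deposited estimated counts per gene (whole numbers, made with Salmon and tximport per the file's name and the labels) and, for 40 of the samples, a signal the authors normalized by 1 factor per column. Per the submitters' processing notes the tools were STAR 2.6.1d, Salmon 0.14.2 and DESeq2 1.30.1, with mm10; their roles are not given in the sources used here. Estimated counts split reads shared by similar genes by a model.

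Libraries were scaled by TMM, genes filtered by filterByExpr on the 16 groups, and 46 libraries fitted with edgeR 4.0.16 in R 4.3.3 (quasi-likelihood, robust, 1 mean per group). P-values were Benjamini-Hochberg adjusted over 21986 genes within each test, with calls under 0.05, and SE is the log2 fold change divided by the root of F. Per-kb levels use exon lengths of GENCODE M21 (GRCm38). Depth varied from 16824021 to 65042327 counts, which limits members of low level. The alternatives, described in the closing section, used RLE scaling, no filter, a mean count of 10, DESeq2 1.42.0, limma 3.58.1 on log2(signal + 1 or 0.1), other sets of libraries, a replicate block and each library left out (with the dispersion trend held). The procedure was tested on simulated data. The members and lists were chosen with earlier results of these data known. Members named were the highest of each class, the main chain pairs and the largest changes by age, region and interaction; others were named where a count needed it. Sequences came from GENCODE M21 and RefSeq; no protein table was used.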

Additional observations from a re-analysis of the deposited data

Results flagged for a closer look

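The course with age differed between duodenum and ileum for 25 collagen genes, by the test of the interaction of region and age in edgeR with adjustment over all tested genes. Among the type IV genes the adjusted p was 0.00406 for Col4a1, 0.00147 for Col4a2, 0.0203 for Col4a3, 1.66e-05 for Col4a5 and 5.15e-05 for Col4a6. Among the type VI genes the adjusted p was 0.00144 for Col6a1, 0.000324 for Col6a2, 7.39e-05 for Col6a3, 2.45e-05 for Col6a4 and 0.00762 for Col6a5. Among the fibrillar genes the adjusted p was 0.0358 for Col1a1, 0.0101 for Col1a2, 0.0419 for Col3a1, 0.000172 for Col5a1, 0.00692 for Col5a2, 0.0041 for Col5a3, 4.89e-05 for Col24a1 and 0.0165 for Col27a1. Among the remaining classes the adjusted p was 0.00354 for Col7a1, 0.00359 for Col8a1, 0.001 for Col13a1, 0.01 for Col14a1, 0.00048 for Col15a1, 9.49e-08 for Col18a1 and 0.00909 for Col23a1. From day 0 to day 8, 24 of the 25 had a lower log2 fold change in the duodenum than in the ileum, Col27a1 being the exception. So did 37 of all 42 tested members. The count becomes 0 when the day 6 libraries numbered 3 are put back under their labels. The Col3a1 call ends when any of 23 libraries is left out and the Col1a1 call when any of 11 is. All 10 fibroblast and 5 pericyte markers and 5 of 7 endothelial markers were also higher in the ileum averaged over ages. That holds for 31.9% of all tested genes. The markers' part in these differences was not tested.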

How the results depend on the processing

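Of 7038 repeats of single member calls, 6691 kept their side of the threshold, 347 lost it and 0 turned their direction. The age effect and interaction tests have no direction, so their repeats could not turn. Leaving out 1 library gave 195 of the losses, and putting back the day 6 libraries numbered 3 gave 86 of 241. With those put back (all 48 libraries) the member counts were 18 for the ileal age effect, 0 for the interaction, 7 for the region at week 4, 2 for day 8 against day 0 in the ileum, 0 and 0 for week 2 against day 8 (duodenum, ileum), 0 and 2 from week 2 to week 3, and 1 and 1 for week 4 against week 3. With the 40 libraries of the normalized tables they were 8 and 5 for week 2 against day 8, 9 from week 2 to week 3 in the ileum, and 5 at day 0 and 24 at week 4 for the region. Without the low-count filter they were 3 and 0 for week 2 against day 8, 0 from week 2 to week 3 in the duodenum, and 6 for the region at week 4. With only the compared groups they were 8 and 5 for week 2 against day 8, 6 and 10 from week 2 to week 3, 3 for week 4 against week 3 in the ileum, and 4 for the region at day 0. DESeq2 gave 8 for week 2 against day 8 in the duodenum and 4 for the region at day 0. RLE scaling, and likewise a mean count of at least 10, gave 1 for week 3 against week 2 in the duodenum. Where edgeR gave 0 with all 48 libraries, an unadjusted p under 0.05 was found for 16 members in the interaction, 5 and 4 at week 2 against day 8, and 2 at week 3 against week 2; DESeq2 on the 46 libraries called 27, 8, 1 and 2. Without the filter the 0 stands beside 4 at an unadjusted p under 0.05 at week 3 against week 2 (duodenum) and 7 at week 2 against day 8 (ileum), and with the block beside 7 at the latter. The cause of these differences was not tested.

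Leaving out 1 library gave 30 to 33 members for the age effect in the duodenum and 24 to 29 in the ileum; 23 to 27 and 19 to 24 for week 4 against day 0; 22 to 26 and 2 to 10 for day 8 against day 0; 1 to 4 and 0 to 1 from day 8 to week 2; 0 to 1 and 4 to 6 from week 2 to week 3; 3 to 6 and 3 to 6 for the last step. For the ileum against the duodenum it gave 36 to 38 averaged over ages, 2 at day 0 and 5 to 16 at week 4, and 23 to 28 for the interaction. Depth limits the members of low level: Col9a1 and Col10a1 had too few counts to be tested.

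The sample numbers were checked for pairing by the correlation of deviations from the group means. It was taken over 23 pairs of duodenum and ileum samples with the same age and number. The values were -0.36 to 0.67 with a median of 0.16, over 0.1 in 16 pairs, beside a median of -0.11 in 44 other pairs. By the medians, samples sharing a number were thus more alike. Deviations within a group cancel out, so a higher value in same-number pairs goes with a lower one in the other pairs. The other pairs are therefore no independent baseline. Whether samples sharing a number come from the same animal cannot be told by this check. The main fit did not pair them, so its regional and interaction p-values do not account for any such sharing. The replicate block of the regional and interaction tests joined samples of the same age and number, and gave 28 members for the interaction. For the tests between ages the block joined samples of the same region and number across ages, which does not address sharing between regions. With that block the member counts were 1 for week 3 against week 2 in the duodenum and 0 for week 2 against day 8 in the ileum. For week 4 against day 0 they were 26 and 21.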
